A study of Mus musculus with 6 samples.

Results

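Neutrophil granule genes were followed in macrophages that lack the scavenger receptor MSR1. The 10 genes were chosen by symbol from the 52550 genes of the deposited table. They are S100a8, S100a9, Ngp, Camp, Ltf, Lcn2, Retnlg, Mmp8, Cxcr2 and Mpo. The rule itself uses no measured value, but these genes and all gene lists were chosen with earlier results of these data known. Shares set beside those of all tested genes are therefore not from a blind selection. All 10 had enough counts to be tested, among 16402 tested genes. RNA-seq was performed on 3 libraries from MSR1 KO mice and 3 libraries from MSR1 WT mice of the same C57BL/6 background, and mouse age is not given in the sources used here. Bone marrow cells of each genotype, after lysis of red cells, were grown for 7 days in 25 ng/ml M-CSF, the growth factor that turns marrow precursors into bone marrow-derived macrophages (BMDMs), and were then kept for 48 h in a transwell system with bone marrow mesenchymal stem cells (BMSCs). The deletion is present in all cells of the mouse, so it also affects any marrow cell other than a macrophage that remained in the culture. No sort of the BMDMs before RNA extraction is described. The paper speaks of 3 biological replicates, but nothing states whether the libraries of a group came from separate mice. The p-values therefore measure only the spread between these libraries.

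Neutrophils fill their granules in a fixed order as they mature in the bone marrow. Primary granules, made at the promyelocyte stage, hold myeloperoxidase and serine proteases. Specific granules, made at the myelocyte and metamyelocyte stage, hold lactoferrin, cathelicidin, lipocalin and collagenase, and gelatinase granules and the surface receptors that guide the cell out of the marrow come last, when transcription of the early granule genes has already been shut off. A macrophage culture from marrow is not a neutrophil culture, and in bulk RNA fewer neutrophil-lineage cells and less RNA of these genes per cell cannot be told apart.

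Total counts were between 36143518 and 47417448 per library. Msr1 itself had 1825 to 2118 counts in the MSR1 KO libraries and 7543 to 9219 counts in those of MSR1 WT, giving a log2 fold change of -2.02 (SE, the standard error, 0.14, adjusted p = 0.0012 by edgeR's quasi-likelihood test with Benjamini-Hochberg adjustment), so reads on the gene were reduced and not absent. Macrophage transcripts dominated. Csf1r, the M-CSF receptor, stood at 4333 to 4565 CPM (counts scaled to a common library size by the TMM method) and Adgre1, which encodes F4/80, at 2172 to 2458 CPM over the 6 libraries. The defining neutrophil marker Ly6g, named here after its values were seen, was between 0.315 and 2.23 CPM.

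The 10 genes lie on 6 chromosomes and all are protein-coding. S100a8 (ENSMUSG00000056054.9, chr3:90668978-90670035, plus strand) and S100a9 (ENSMUSG00000056071.12, chr3:90692632-90695721, minus strand) are neighbours, 22.6 kb apart. Camp (ENSMUSG00000038357.10, chr9:109847379-109849617, minus strand), Ngp (ENSMUSG00000032484.8, chr9:110419747-110423012, plus strand) and Ltf (ENSMUSG00000032496.7, chr9:111019271-111042767, plus strand) follow each other on chromosome 9 with gaps of 0.57 and 0.60 Mb. Mmp8 (ENSMUSG00000005800.3, chr9:7558456-7568485, plus strand) lies near the other end of that chromosome. Lcn2 (ENSMUSG00000026822.14) is at chr2:32384633-32388252 on the minus strand, Mpo (ENSMUSG00000009350.13) at chr11:87793581-87804413, Retnlg (ENSMUSG00000022651.5) at chr16:48872608-48874498 and Cxcr2 (ENSMUSG00000026180.8) at chr1:74153989-74161246, these last on the plus strand. Positions are those of the deposited table, which match the GENCODE annotation of GRCm38 for most genes. Of the 10, only Mpo shares exon bases with another annotated gene (14.95% with Gm11505 on the opposite strand), and since the strand setting of the counting is not given, reads of that overlap cannot be assigned to either.

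The sequence before the transcription start was examined because granule genes of both later stages are known targets of C/EBP family factors, which act with PU.1 and RUNX factors in granulocyte precursors. RefSeq sequences (GRCm38.p6) of the 250 bases before each start were searched. The C/EBP letters TTNNGCAA, read on both strands (TTGCNNAA on the reverse strand), were present in 6 of the 10 windows, those of S100a9, Ngp, Ltf, Lcn2, Mmp8 and Retnlg, and in 9.6% of all 32851 promoter windows of the same length. The letters AGGAAG, the core of PU.1 and other ETS factor sites, were on either strand in 7 of 10 windows against 29.5% of all windows. The RUNX letters TGTGGT, again on either strand, were in 1 of 10 windows, that of S100a9, against 14.0%. No match to a motif overlapped a match to another, and a match describes the letters only. Of the 6 windows that carry the C/EBP letters, that of Lcn2 runs through annotated exons and is not printed. The other 5 are shown with those letters in capitals, as far as no annotated exon is reached, beside the window of Cxcr2, which like Retnlg was a differentially expressed gene (DEG, fold change above 1.5 with an unadjusted p under 0.05, as the study defines it) and in which the search found no C/EBP letters. Each reads 5′ to 3′ on the strand of its gene.

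S100a9, chr3:90695722-90695971, minus strand: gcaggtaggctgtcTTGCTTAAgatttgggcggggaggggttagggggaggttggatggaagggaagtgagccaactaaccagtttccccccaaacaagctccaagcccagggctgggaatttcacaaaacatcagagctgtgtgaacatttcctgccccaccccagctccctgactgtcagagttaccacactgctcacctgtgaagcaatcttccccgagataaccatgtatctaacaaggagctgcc
Ngp, chr9:110419558-110419746, plus strand: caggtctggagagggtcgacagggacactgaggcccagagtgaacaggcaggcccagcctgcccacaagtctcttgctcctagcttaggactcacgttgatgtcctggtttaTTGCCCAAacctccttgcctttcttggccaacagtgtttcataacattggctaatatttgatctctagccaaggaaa
Ltf, chr9:111019042-111019270, plus strand: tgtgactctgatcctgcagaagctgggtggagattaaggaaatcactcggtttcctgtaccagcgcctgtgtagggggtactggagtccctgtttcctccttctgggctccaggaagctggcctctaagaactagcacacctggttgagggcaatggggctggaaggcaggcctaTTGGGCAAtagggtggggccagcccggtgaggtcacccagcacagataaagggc
Mmp8, chr9:7558179-7558428, plus strand: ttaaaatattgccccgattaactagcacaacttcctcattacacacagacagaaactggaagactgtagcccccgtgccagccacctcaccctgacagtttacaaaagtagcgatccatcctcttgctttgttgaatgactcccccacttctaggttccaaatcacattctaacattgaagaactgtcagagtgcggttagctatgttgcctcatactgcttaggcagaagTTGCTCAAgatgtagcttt
Retnlg, chr16:48872358-48872607, plus strand: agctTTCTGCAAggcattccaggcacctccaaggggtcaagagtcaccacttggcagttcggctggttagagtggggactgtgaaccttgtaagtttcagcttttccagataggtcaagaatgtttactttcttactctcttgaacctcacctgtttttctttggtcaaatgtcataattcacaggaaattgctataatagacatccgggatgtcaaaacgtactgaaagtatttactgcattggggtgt
Cxcr2, chr1:74153744-74153988, plus strand: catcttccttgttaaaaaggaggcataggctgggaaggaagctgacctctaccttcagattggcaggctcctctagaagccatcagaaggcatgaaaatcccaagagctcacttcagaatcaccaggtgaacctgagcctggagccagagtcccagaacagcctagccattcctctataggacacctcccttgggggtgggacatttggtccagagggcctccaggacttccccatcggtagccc

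The capitals lie close to the start in Mmp8 (bases -19 to -12) and Ltf (-75 to -68), at -138 to -131 in Ngp, and at the far end of the window in S100a9 (-236 to -229) and Retnlg (-246 to -239). Ngp holds the letters again at -11 to -4, within an annotated exon that is not printed.

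Levels of different genes were compared per kilobase of exon. In MSR1 WT, S100a9 had the highest level (325.6 ± 90.5 CPM per kb, mean ± SD, n = 3), then Ngp (175.0 ± 69.8), S100a8 (67.1 ± 12.2) and Ltf (43.1 ± 12.1). Next came Lcn2, Retnlg, Camp and Mmp8 with means between 16.2 and 18.7 CPM per kb, whose order did not exceed their SDs of 3.10 to 7.75. Mpo (7.74 ± 1.53) and Cxcr2 (1.72 ± 0.320) were lowest. In MSR1 KO the upper 4 kept this order, with S100a9 at 414 ± 133, Ngp at 210 ± 55.2, S100a8 at 85.8 ± 24.0 and Ltf at 57.3 ± 13.8 CPM per kb. Retnlg, at 36.6 ± 10.3 CPM per kb in MSR1 KO, had a higher mean than Camp (26.6 ± 6.81) and Lcn2 (26.2 ± 6.55), again within the SDs.

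All 10 genes had a higher mean in MSR1 KO than in MSR1 WT, as did 49.6% of all tested genes, and their log2 fold changes ran from 0.27 for Ngp to 0.99 for Retnlg with a median of 0.42 against -0.002 for all tested genes. Retnlg and Cxcr2, the genes of mature neutrophils, were DEGs by edgeR. This was 2 of 10 genes, beside 3.59% of all tested genes called higher. DESeq2 called Camp, a specific granule gene, in addition, beside 608 of 16402 tested genes called higher. By edgeR and by DESeq2, 0 were lower DEGs (5.05% of all tested genes were by edgeR), and 0 were lower at an unadjusted p under 0.05 (10.2%). At an adjusted p under 0.05 (edgeR, Benjamini-Hochberg adjustment), 0 of the 10 were called, beside 2.25% of all tested genes higher and 2.66% lower. By edgeR, 4 were higher at an unadjusted p under 0.05 (8.65% of all tested genes), namely Mpo, Lcn2, Retnlg and Cxcr2. DESeq2 called Retnlg and Cxcr2 at an adjusted p under 0.05, beside 720 of 16402 tested genes called higher. These 2 genes were also the members in which every MSR1 KO library exceeded every MSR1 WT library, a pattern seen in 12.1% of all tested genes.

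**Figure D1:**
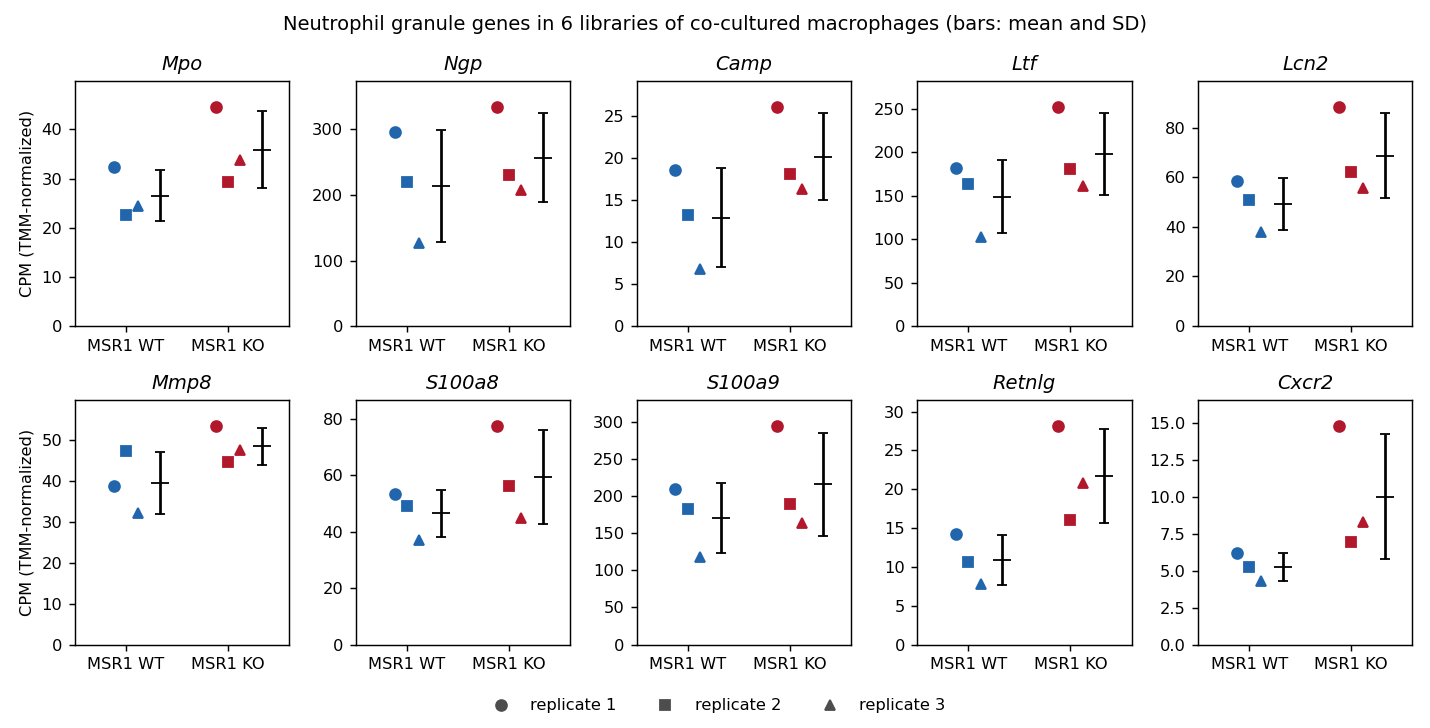
CPM of each gene (vertical axes, linear from 0) in the 3 MSR1 WT (blue) and 3 MSR1 KO (red) libraries, with the mean and SD of each group in black. MSR1 KO replicate 1 is the highest point in all 10 panels, and the groups are apart for Retnlg and Cxcr2 only.

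Retnlg encodes resistin-like molecule gamma, a small secreted protein found in mature neutrophils of marrow and blood. Its level was 28.2, 16.1 and 20.8 CPM in MSR1 KO replicates 1, 2 and 3, and 14.3, 10.6 and 7.82 CPM in MSR1 WT replicates 1, 2 and 3. The lowest MSR1 KO library was above the highest MSR1 WT library. The mean rose from 10.9 ± 3.23 to 21.7 ± 6.09 CPM (SD, n = 3 in either group), for which the log2 fold change was 0.99 (SE 0.26, unadjusted p = 0.0047, adjusted p = 0.072 by edgeR with Benjamini-Hochberg adjustment), or 1.99-fold. Retnlg passed the study's definition with each of the 6 libraries left out in turn, with log2 fold changes between 0.76 and 1.23. It ended just under the fold threshold (0.58, unadjusted p = 0.0303, edgeR) when MSR1 KO replicate 1 and MSR1 WT replicate 3 were left out together.

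Cxcr2 encodes the receptor for the CXC chemokines that draw mature neutrophils from the marrow into blood and tissue. The MSR1 KO libraries had 14.8, 6.91 and 8.26 CPM and the MSR1 WT libraries 6.21, 5.25 and 4.26 CPM. Again the groups did not overlap, although MSR1 KO replicate 2 lay only slightly above MSR1 WT replicate 1 and MSR1 KO replicate 1 stood well above all other libraries. The log2 fold change was 0.93 (SE 0.29, unadjusted p = 0.0126, adjusted p = 0.13, edgeR with Benjamini-Hochberg adjustment), with means of 9.98 ± 4.21 and 5.24 ± 0.974 CPM (SD, n = 3). Without MSR1 KO replicate 1 it was 0.54 and below the fold threshold, and without that library and MSR1 WT replicate 3 it was 0.42 (unadjusted p = 0.0853, edgeR).

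Mpo encodes myeloperoxidase, the oxidant-producing enzyme of primary granules and the earliest of the 10 genes in the maturation order. It stood at 44.5, 29.3 and 33.8 CPM in MSR1 KO and at 32.5, 22.7 and 24.4 CPM in MSR1 WT. The groups overlapped, since MSR1 KO replicate 2 was below MSR1 WT replicate 1. The log2 fold change was 0.44 (SE 0.18, unadjusted p = 0.0436, adjusted p = 0.25, edgeR with Benjamini-Hochberg adjustment). It did not reach the fold threshold, which it passed without MSR1 WT replicate 1 (0.61). Without MSR1 KO replicate 1 it was 0.26 (unadjusted p = 0.165, edgeR), and without that library and MSR1 WT replicate 3 it was 0.21.

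Among the 5 specific granule genes, edgeR called no DEG and gave only Lcn2 an unadjusted p under 0.05. DESeq2 gave 1 DEG, Camp (log2 fold change 0.65, unadjusted p = 0.0304), and also gave Ltf (unadjusted p = 0.048) and Lcn2 (unadjusted p = 0.0129) values under 0.05. Lcn2, lipocalin 2, binds bacterial siderophores and so withholds iron. It had 88.2, 62.3 and 55.7 CPM in MSR1 KO against 58.6, 50.9 and 37.9 CPM in MSR1 WT, with MSR1 KO replicate 3 below MSR1 WT replicate 1. Its log2 fold change was 0.48 (SE 0.20, unadjusted p = 0.0429, adjusted p = 0.24, edgeR with Benjamini-Hochberg adjustment). It passed the fold threshold without MSR1 KO replicate 3 (0.62) or MSR1 WT replicate 1 (0.63). It was 0.27 without MSR1 KO replicate 1 (unadjusted p = 0.171) and 0.33 without MSR1 WT replicate 3 (unadjusted p = 0.133, edgeR). Without both of these last libraries it was 0.12.

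Camp encodes the cathelicidin antimicrobial peptide precursor. It was at 26.0, 18.1 and 16.3 CPM in MSR1 KO and at 18.6, 13.2 and 6.83 CPM in MSR1 WT, the widest range of the 10 genes with a 3.81-fold difference between its highest and lowest library. Its log2 fold change of 0.65 was above the fold threshold, but with an SE of 0.33 the unadjusted p was 0.0869 (edgeR). Without MSR1 WT replicate 1 it was a DEG (1.00, unadjusted p = 0.0156), and without MSR1 WT replicate 3 the value was 0.34. MSR1 WT replicate 3 was the low library here, as it was for the other 4 genes of this stage.

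Ltf, lactoferrin, binds iron in the specific granule. Its level was 252, 180 and 161 CPM in MSR1 KO and 181, 163 and 102 CPM in MSR1 WT, with a log2 fold change of 0.41 (SE 0.23, unadjusted p = 0.109, edgeR). Without MSR1 KO replicate 1 and MSR1 WT replicate 3 the value was 0.0008. Ngp, neutrophilic granule protein, is a cystatin-like granule protein, and it had 334, 230 and 208 CPM in MSR1 KO and 296, 219 and 126 CPM in MSR1 WT. Its log2 fold change of 0.27 (SE 0.29, unadjusted p = 0.389, edgeR) fell to -0.004 without MSR1 WT replicate 3. Mmp8 is the neutrophil collagenase and varied least, with 53.4, 44.5 and 47.4 CPM in MSR1 KO and 38.8, 47.2 and 32.2 CPM in MSR1 WT, a 1.66-fold range over the 6 libraries. Its log2 fold change was 0.30 (SE 0.14, unadjusted p = 0.068, edgeR).

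S100a8 and S100a9 encode the subunits of calprotectin, a calcium- and zinc-binding complex that fills the neutrophil cytosol and is also made by monocytes. S100a8 was at 77.6, 56.1 and 44.9 CPM in MSR1 KO and at 53.4, 49.2 and 37.1 CPM in MSR1 WT. S100a9 was at 295, 189 and 164 CPM in MSR1 KO and at 210, 182 and 118 CPM in MSR1 WT. For each gene MSR1 KO replicate 3 lay below MSR1 WT replicates 1 and 2, so the groups overlapped. Each had a log2 fold change of 0.35, with an SE of 0.21 and an unadjusted p of 0.123 for S100a8 and an SE of 0.26 and an unadjusted p of 0.212 for S100a9 (edgeR). Without MSR1 KO replicate 1 and MSR1 WT replicate 3 these became -0.01 and -0.14.

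The 10 genes shared their highest library, and all but Mpo shared their lowest. MSR1 KO replicate 1 was the highest of the 6 libraries for 10 of 10 genes, where 15.9% of all tested genes had their highest value. MSR1 WT replicate 3 was the lowest for 9 of 10, against 13.3% of all tested genes, Mpo being lowest in MSR1 WT replicate 2, and 9 of 10 genes showed both extremes, against 2.68%. MSR1 KO replicate 1 had 1.16 times (Mmp8) to 1.95 times (Cxcr2) the mean of the other MSR1 KO libraries, and MSR1 WT replicate 3 had 0.430 times (Camp) to 0.884 times (Mpo) the mean of the other MSR1 WT libraries. Summed over the 10 genes, the level was 1213, 833 and 760 CPM in MSR1 KO and 909, 764 and 496 CPM in MSR1 WT, so the sums overlapped. With MSR1 KO replicate 1 and MSR1 WT replicate 3 both left out, a setting chosen after the data had been seen, the median log2 fold change of the 10 genes was 0.11 in place of 0.42, and 0 of 10 were DEGs by edgeR. Retnlg still had an unadjusted p under 0.05 there, and none of the 10 had an adjusted p under 0.05.

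**Figure D2:**
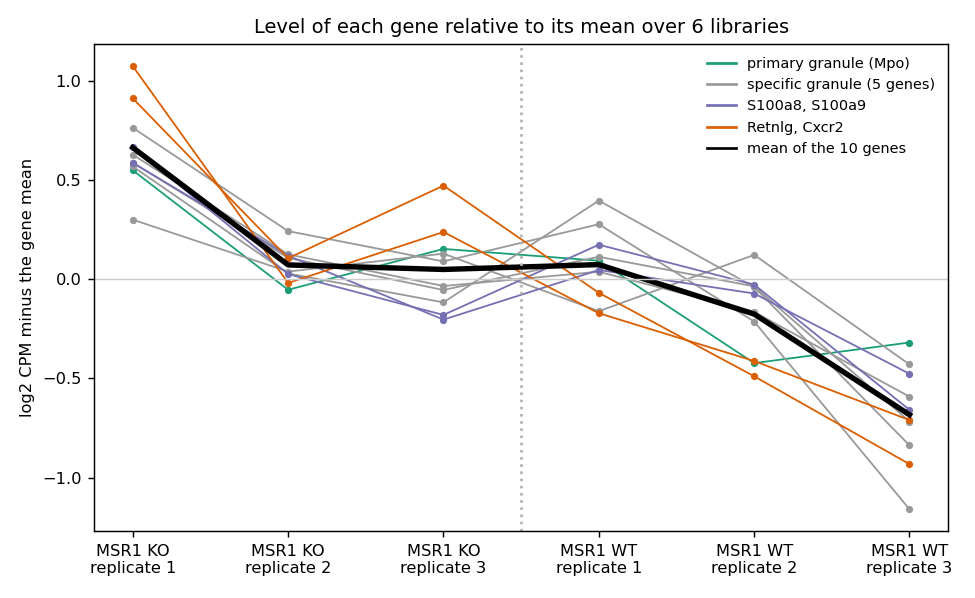
Log2 CPM of each gene minus that gene's mean over the 6 libraries (vertical axis), with thin lines joining the 6 values of a gene (horizontal axis, libraries) and the thick line giving the mean of the 10 genes. All lines are highest in MSR1 KO replicate 1, and those of Retnlg and Cxcr2 are below 0 in all 3 MSR1 WT libraries.

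Some pairs of genes kept nearly the same ratio in every library. S100a9 had 3.17 to 3.93 times the CPM of S100a8, a 1.24-fold range, and Ltf had 2.69 to 3.21 times the CPM of Lcn2, a 1.19-fold range, although each gene alone varied 2.09-fold or more. Ngp to Ltf ranged from 1.24 to 1.64. Camp relative to Ngp behaved otherwise. It was 0.0779, 0.0788 and 0.0784 in MSR1 KO and 0.0626, 0.0602 and 0.0542 in MSR1 WT, so that within the specific granule stage the share of Camp was higher in all 3 MSR1 KO libraries, with no test made of a ratio between chosen genes.

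Retnlg was likewise set against genes of earlier stages in the same library. Relative to Ltf it was 0.112, 0.0892 and 0.129 in MSR1 KO and 0.0787, 0.0652 and 0.0768 in MSR1 WT. Relative to Mpo it was 0.633, 0.549 and 0.614 in MSR1 KO and 0.439, 0.469 and 0.321 in MSR1 WT. Both ratios were apart between the groups, and MSR1 KO replicate 1 lay close to the other MSR1 KO libraries in each. The ratio of Retnlg to Cxcr2 overlapped between the groups, at 1.91 to 2.51 in MSR1 KO and 1.84 to 2.30 in MSR1 WT.

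Early and late stages were then compared as the log2 ratio of summed CPM within each library, as a description with no test. The late genes, Retnlg and Cxcr2, over the primary granule gene Mpo gave -0.05, -0.35 and -0.22 in MSR1 KO and -0.66, -0.51 and -1.01 in MSR1 WT. The MSR1 KO values were all higher, with a mean difference of 0.52. The late genes over the 5 specific granule genes gave -4.13, -4.54 and -4.07 in MSR1 KO and -4.86, -4.96 and -4.66 in MSR1 WT, again without overlap and with a mean difference of 0.58. The specific granule genes over Mpo gave 4.08, 4.19 and 3.85 in MSR1 KO and 4.19, 4.44 and 3.64 in MSR1 WT, which overlapped, with a mean difference of -0.05. The late over specific difference was 0.60 without MSR1 KO replicate 1 and MSR1 WT replicate 3, whereas late over primary was 0.30. With the most abundant gene of the late and specific sums left out, so that Cxcr2 alone stood for the late genes, either difference was 0.43, with the groups apart for late over primary and overlapping for late over specific.

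**Figure D3:**
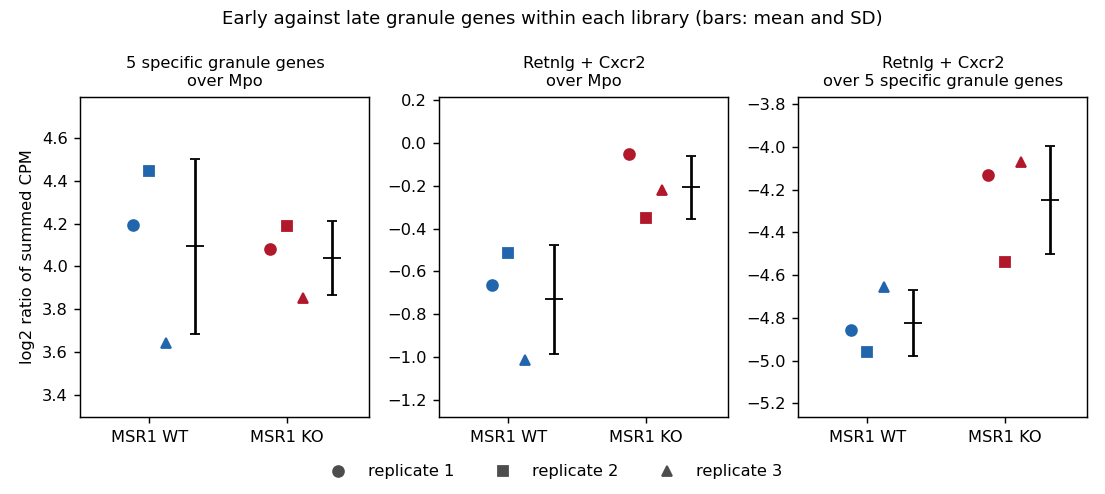
Log2 ratio of summed CPM (vertical axes, each spanning the same 1.5 log2 units) in each library, with the mean and SD of each group in black. The late genes Retnlg and Cxcr2 are higher relative to Mpo and to the 5 specific granule genes in all 3 MSR1 KO libraries, while the specific granule genes over Mpo overlap.

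The direction of these ratios depended on which genes stood for a stage. With 28 further tested genes of the 3 stages added, late over primary was lower in all 3 MSR1 KO libraries, with a mean difference of -0.52, and late over specific differed by -0.26 with overlap. The sums were then mostly those of genes that macrophages express strongly. Ctsc, cathepsin C, which activates the granule proteases, took 94.9% to 97.2% of the primary sum. Cybb, the catalytic subunit of the NADPH oxidase, took 51.9% to 64.1% of the specific sum, and Mmp9, gelatinase B, 39.6% to 57.7% of the late sum. Without the most abundant gene of each stage the late over primary difference was -0.02 and the late over specific difference 0.09, both with overlapping groups.

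The other genes of each stage were read gene by gene from lists of general knowledge. Of 7 further primary granule genes 6 were tested, with a median log2 fold change of 0.32 and 0 DEGs by edgeR or DESeq2. Ctsc stood at 1708 ± 179 CPM in MSR1 KO and 1175 ± 149 CPM in MSR1 WT (SD, n = 3). It was below the fold threshold (log2 fold change 0.54) but had an adjusted p of 0.035 (unadjusted p = 0.0012, edgeR with Benjamini-Hochberg adjustment). It passed the fold threshold without MSR1 KO replicate 3 or MSR1 WT replicate 3 (0.61 in each). The adjusted p was above 0.05 without any other single library (0.0837 to 0.11) and with the replicate number as a block (0.104). The serine protease genes Elane (neutrophil elastase), Prtn3 (proteinase 3) and Ctsg (cathepsin G) had log2 fold changes of 0.25, 0.21 and 0.39 with unadjusted p-values from 0.139 to 0.399 (edgeR), and Serpinb1a, an inhibitor of those proteases, had 0.52 (unadjusted p = 0.146, edgeR). Bpi, which encodes a bactericidal protein, had 0 counts in every library. Like Mpo, 5 of these 6 genes were highest in MSR1 KO replicate 1, Ctsc being highest in MSR1 KO replicate 2.

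Of 9 further specific granule genes, 9 were tested, 0 were DEGs by edgeR or DESeq2, Cybb alone had an unadjusted p under 0.05 by edgeR, and the median log2 fold change was 0.15. Chil3, a chitinase-like lectin that alternatively activated macrophages also make, had 0.15 (unadjusted p = 0.456, edgeR), and Cyba, the partner of Cybb in the oxidase, had 0.14 (unadjusted p = 0.111, edgeR). Cybb had 0.30 with an unadjusted p of 0.0129 and an adjusted p of 0.13 (edgeR with Benjamini-Hochberg adjustment). Hp, haptoglobin, had -0.39 (unadjusted p = 0.066, edgeR).

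Of 17 further genes of gelatinase granules and mature neutrophils 13 were tested, with a median log2 fold change of 0.64, and 3 were higher DEGs while 0 were lower. Fpr2, a receptor for formylated peptides, was at 50.6, 53.5 and 44.9 CPM in MSR1 KO and 25.6, 28.1 and 37.0 CPM in MSR1 WT, a log2 fold change of 0.72 (adjusted p = 0.032, edgeR with Benjamini-Hochberg adjustment). The groups were apart, and MSR1 KO replicate 2, not replicate 1, was the highest library. Fpr2 stayed a DEG with each library left out. Its adjusted p was then under 0.05 only without MSR1 WT replicate 3 (0.008), and 0.0575 to 0.121 without any other single library. With the replicate number as a block it was 0.0869 (edgeR).

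Ifitm6 is an interferon-induced transmembrane family gene of myeloid cells. It was at 38.6, 28.4 and 41.3 CPM in MSR1 KO and 20.3, 20.6 and 25.3 CPM in MSR1 WT. The log2 fold change was 0.71 (adjusted p = 0.041, edgeR with Benjamini-Hochberg adjustment). The adjusted p was 0.108 to 0.159 without MSR1 KO replicate 1 or 3 or MSR1 WT replicate 1 or 2. With the replicate number as a block it was 0.0615. Stfa2l1, a stefin A gene of a family with near-identical copies, had 24, 40 and 38 counts in MSR1 KO and 17, 8 and 14 counts in MSR1 WT, a log2 fold change of 1.44 (adjusted p = 0.15, edgeR), and reads of such copies are assigned with uncertainty. It was no longer a DEG without MSR1 KO replicate 2 (1.28, unadjusted p = 0.0693) or MSR1 WT replicate 2 (1.14, unadjusted p = 0.0611). Other genes of the list differed in direction. Mmp9 had -0.33 and Padi4, the enzyme that citrullinates histones, had -0.38, with unadjusted p-values of 0.025 and 0.00982, while Csf3r, the receptor for G-CSF, and Fpr1 had 0.27 and 0.28, with unadjusted p-values of 0.00273 and 0.0213 (edgeR). In this list 3 of 13 genes were highest in MSR1 KO replicate 1, against 10 of the 10 granule genes described above. Without MSR1 KO replicate 1 and MSR1 WT replicate 3, Fpr2, Ifitm6 and Stfa2l1 were still the 3 DEGs of the list and its median log2 fold change was 0.42, while the median of the further primary granule genes was -0.03 and that of the further specific granule genes -0.20. Fpr1, Fpr2, Csf3r and Mmp9 are also expressed by monocytes and macrophages.

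**Figure D4:**
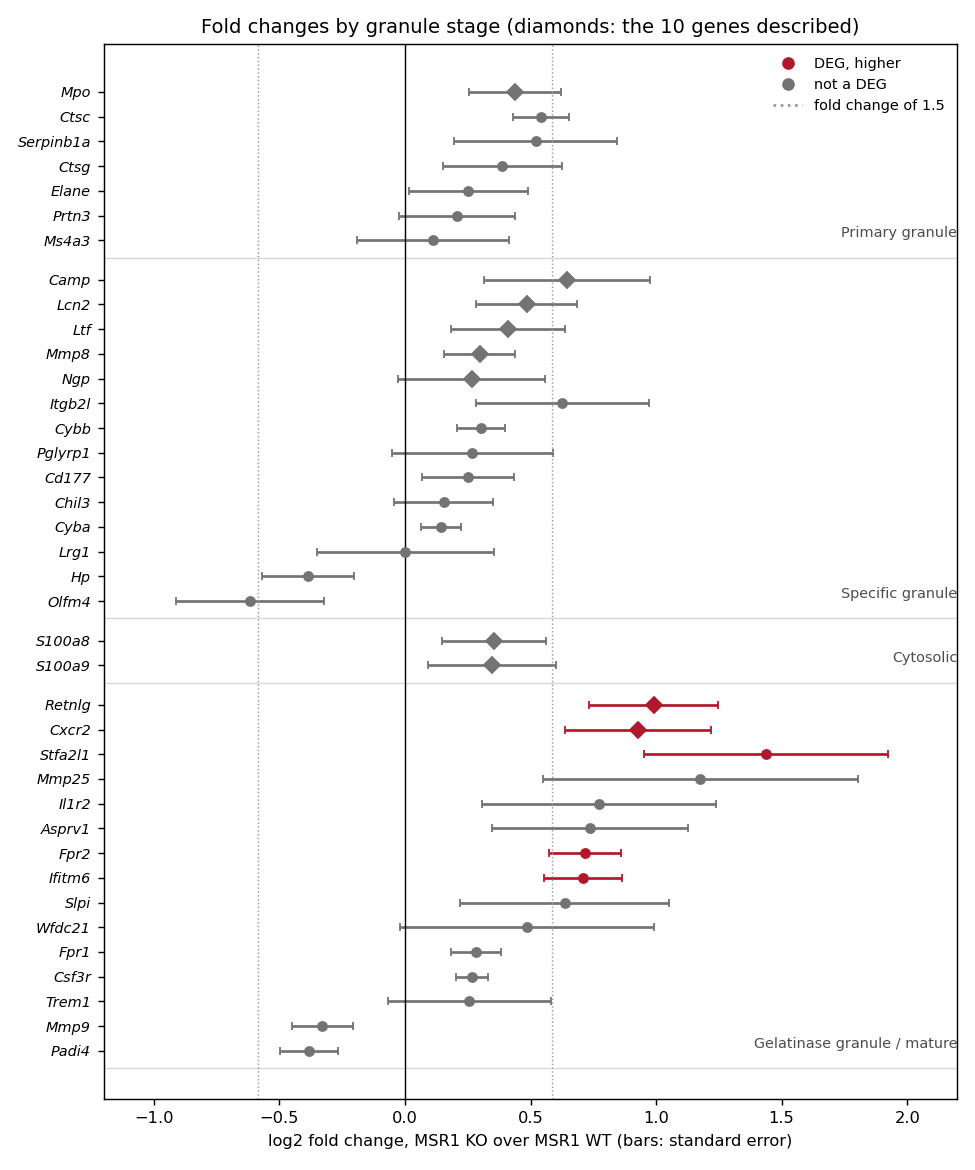
Log2 fold change of MSR1 KO over MSR1 WT (horizontal axis) with SE for the 10 genes (diamonds) and the other tested genes of each stage (circles), in red where a gene was a higher DEG by edgeR. These are Retnlg, Cxcr2, Fpr2, Ifitm6 and Stfa2l1, all in the gelatinase granule and mature neutrophil group.

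The transcription factors that drive granule gene expression were present at varied levels. Of 9 tested, 1 was a higher DEG and 0 were lower. This was Myb, a factor of proliferating precursors, with 3.93, 2.21 and 2.50 CPM in MSR1 KO and 1.96, 1.29 and 1.94 CPM in MSR1 WT (log2 fold change 0.73, unadjusted p = 0.042, adjusted p = 0.24, edgeR with Benjamini-Hochberg adjustment). The call was lost without MSR1 KO replicate 1 (0.45, unadjusted p = 0.171), without any 1 of the MSR1 WT libraries (0.56 to 0.84, unadjusted p-values from 0.0514 to 0.124) and without MSR1 KO replicate 1 and MSR1 WT replicate 3 together (0.55). Cebpb, the family member used in emergency granulopoiesis and in macrophages, had 0.38 (unadjusted p = 0.00496) and Spi1, which encodes PU.1, had 0.30 (unadjusted p = 0.0127), both below the fold threshold. Cebpa, which commits precursors to the granulocyte path, had -0.07 and Runx1 had 0.02 (unadjusted p-values of 0.669 and 0.838, edgeR). Cebpe, which is required for specific granules and is named after its values were seen, was low. It had 2.32 ± 0.935 CPM in MSR1 KO and 2.12 ± 0.886 CPM in MSR1 WT (SD, n = 3). Its log2 fold change was 0.13 (unadjusted p = 0.741, edgeR). Gfi1 of the same list, likewise named after its values were seen, had a log2 fold change of 0.575 (unadjusted p = 0.0247, edgeR). This was below the fold threshold, with every MSR1 KO library above every MSR1 WT library.

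On the side of signalling partners, 5 of 5 chemokine ligands of CXCR2 were tested and 1 was a lower DEG. Ppbp had 6.99, 3.89 and 6.39 CPM in MSR1 KO and 7.79, 10.7 and 8.06 CPM in MSR1 WT, without overlap (log2 fold change -0.62, adjusted p = 0.21, edgeR with Benjamini-Hochberg adjustment). It was no longer a DEG without MSR1 KO replicate 2 (-0.41), without MSR1 WT replicate 2 (-0.46, unadjusted p = 0.117) or with the replicate number as a block (-0.64, unadjusted p = 0.0617). Cxcl2 and Cxcl3 had log2 fold changes of -0.26 and -0.62 with wide spread (unadjusted p-values of 0.489 and 0.192, edgeR), and Cxcl1 and Cxcl5, both under 1 CPM, had 0.01 and -0.02. The receptor Cxcr2 and its ligand Ppbp had fold changes of opposite sign in the same libraries.

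Of 4 receptors that bind released granule or cytosolic proteins, Tlr4, a receptor of calprotectin, was a lower DEG with 49.1, 28.7 and 21.3 CPM in MSR1 KO and 122, 36.3 and 136 CPM in MSR1 WT (log2 fold change -1.57, adjusted p = 0.11, edgeR with Benjamini-Hochberg adjustment). MSR1 WT replicate 2 lay within the MSR1 KO range. Ager, another receptor of S100 proteins, had 0.60, the lipocalin receptor gene Slc22a17 had -0.82 and Lrp1, which takes up lactoferrin, had -0.23, with unadjusted p-values of 0.299, 0.0503 and 0.0528 (edgeR). Cxcl12, the chemokine that holds neutrophils in the marrow through CXCR4, was lower (82.1 ± 19.1 against 177 ± 44.1 CPM, SD, n = 3, log2 fold change -1.11, adjusted p = 0.031), Cxcr4 had -0.21 (unadjusted p = 0.0759), and Csf3, which encodes G-CSF, had 0 counts in every library. By edgeR the adjusted p of Cxcl12 was 0.029 without MSR1 WT replicate 2, but 0.0639 to 0.123 without any other single library. With the replicate number as a block it was 0.0659. Cxcl12 is a stromal transcript, and stromal genes were in part lower in the same libraries. Of 9 tested stromal genes, a list that holds Cxcl12 itself, 4 were lower DEGs (Cxcl12, Col3a1, Pdgfra and Pdgfrb) and 1 was higher. Their summed level, Cxcl12 included, was 1125 to 1471 CPM in MSR1 KO and 1466 to 1879 CPM in MSR1 WT. Bglap, which marks osteoblasts, was at 0.

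Markers of other cells were set beside the granule genes. Of the 9 neutrophil identity genes, 6 of which are among the 10 granule genes, 2 were DEGs by edgeR (Retnlg and Cxcr2) and 4 by DESeq2, Camp among them, and 8 were highest in MSR1 KO replicate 1. At an adjusted p under 0.05, DESeq2 called 3 and edgeR 0. Ly6g had 80, 25 and 35 counts in MSR1 KO and 25, 25 and 13 in MSR1 WT, a log2 fold change of 1.30 with a wide SE of 0.58 (unadjusted p = 0.0528, edgeR), again highest in MSR1 KO replicate 1 and lowest in MSR1 WT replicate 3.

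The monocyte list did not share it. Of 5 monocyte genes, 2 were higher DEGs and 1 was lower, all at an adjusted p under 0.05 (edgeR with Benjamini-Hochberg adjustment). Plac8 was at 53.7 ± 4.31 CPM in MSR1 KO and 14.5 ± 3.13 CPM in MSR1 WT (SD, n = 3, log2 fold change 1.89), Ly6c2, the Ly6C antigen gene, had 1.40, and F13a1, coagulation factor XIII, had -1.29. MSR1 KO replicate 2 was the highest library for Plac8 and Ly6c2. The summed level of the list was 485 to 612 CPM in MSR1 KO and 506 to 656 CPM in MSR1 WT. The part of the monocyte genes in the higher levels of Retnlg, Cxcr2, Fpr2 and Ifitm6 was not tested.

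Macrophage genes had summed levels of 24262 to 25551 CPM in MSR1 KO and 24926 to 27791 CPM in MSR1 WT. Of 10, Fcgr1 (log2 fold change 1.14) was a higher DEG and Mrc1 (-0.39) was lower at an adjusted p under 0.05 (edgeR with Benjamini-Hochberg adjustment). DEGs of the lists of other cells are those called by edgeR. Lists of other marrow cells had summed levels far below that of the granule genes. The eosinophil list had 14.1 to 22.0 CPM over the 6 libraries, with 4 of 8 genes tested and Siglecf a lower DEG. The mast cell and basophil list had 31.8 to 34.0 CPM in MSR1 KO and 14.9 to 25.7 CPM in MSR1 WT, without overlap. Its median log2 fold change was 0.42, with 5 of 8 genes tested and Kit a higher DEG. The B cell list had 24.8 to 29.3 CPM, with 3 of 8 genes tested and Ebf1 a lower DEG. The T and NK cell list had 18.9 to 24.5 CPM in MSR1 KO and 5.46 to 16.9 CPM in MSR1 WT, again without overlap. Its median log2 fold change was 1.11, with 5 of 7 genes tested and Trac and Klrb1c higher DEGs. The sums of the eosinophil and B cell lists overlapped between the groups. The erythroid list had at most 0.891 CPM, with 1 of 8 genes tested, no DEG and 4 genes at 0. These 5 lists and the macrophage, monocyte and stromal lists held 0 tested genes with both extremes of the granule genes. Such genes, highest in MSR1 KO replicate 1 and lowest in MSR1 WT replicate 3, were 2.68% of all tested genes. Lists this short cannot show that the pattern was rarer in them. The transcription factor list (Cebpe) and the receptor list (Ager) had 1 such gene each.

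**Figure D5:**
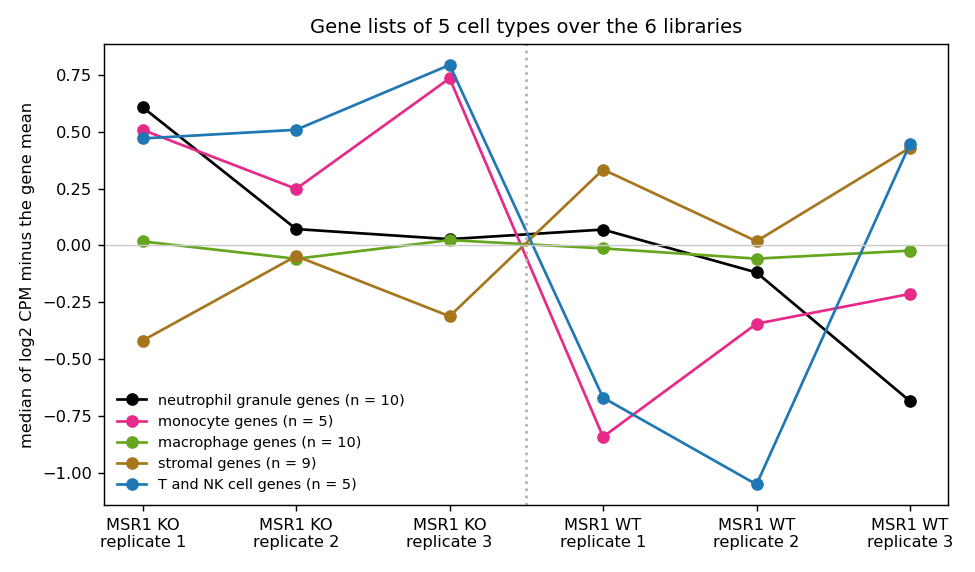
Median over the tested genes of a list (number in the legend) of log2 CPM minus the gene's mean (vertical axis) in each of the 6 libraries (horizontal axis), with lines joining the values of a list. The median of the granule genes is highest in MSR1 KO replicate 1 and lowest in MSR1 WT replicate 3, whereas that of the monocyte list is above 0 in all 3 MSR1 KO libraries and that of the macrophage list lies near 0.

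The tested genes whose profile over the 6 libraries was closest to the mean profile of the 10 were B330016D10Rik, Ctsg, Chil1, Gm10269 and Trim46, with Euclidean distances of centred log2 CPM of 0.222, 0.255, 0.265, 0.288 and 0.291. The granule genes are themselves part of that mean profile, which shortens their distances. The 10 genes lay at 0.144 to 0.649, with a median of 0.457. Of 16392 other tested genes, 34 were nearer than that median and 1.32% lay within the largest distance of the 10. Ctsg is a primary granule protease and Chil1 a chitinase-like protein of specific granules, while B330016D10Rik, Gm10269 and Trim46 had mean levels under 2 CPM, where counting error is larger. Ctsg and Chil1 had the same extremes as the granule genes. They stood at 4.71 and 11.9 CPM in MSR1 KO replicate 1 and 2.28 and 5.62 CPM in MSR1 WT replicate 3. B330016D10Rik, Gm10269 and Trim46 were likewise highest and lowest in these libraries. Since these genes were picked as nearest to the mean profile, shared extremes are partly a result of the choice.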

How the data were processed

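RNA-seq counts of 3 MSR1 KO and 3 MSR1 WT libraries were compared. The deposited table holds raw counts per gene. It also holds, per library, a deposited signal (the count divided by a size factor), and, from the authors' own comparison, a log2 fold change and p-values, none of which was used here. The paper names TopHat and FPKM, whereas the submitters' processing notes name fastp 0.17.1, HISAT2 2.1.0, DESeq2 1.18.1 and R 3.4.3, and the deposited values are counts. How reads were counted, with which strand setting and on which build, is not given in the sources used here. Positions matched GENCODE M21 (GRCm38) for 49909 of 52550 identifiers, and exon lengths were taken from it. All 37 mitochondrial genes were at 0.

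Genes kept by filterByExpr (16402) were normalized by TMM and tested by the quasi-likelihood method (glmQLFit, glmQLFTest) of edgeR 4.0.16 under R 4.3.3, and p-values were adjusted by Benjamini-Hochberg across these genes. CPM uses the TMM library sizes, each SE was derived from the F statistic, and CPM profiles used a prior count of 2. Depth was 36143518 to 47417448 counts per library, and counts of 0 allow up to 3 counts. Each SD and SE reflects the spread between libraries. All pairs of libraries differed by more than sampling noise. No test was made of ratios or sums. The procedure was tested on simulated data. Of 100 genes changed 1.5-fold, edgeR recovered 26 at an adjusted p under 0.05 and 51 as DEGs. Of 100 genes changed 2-fold it recovered 71 and 95. It also called 14 other genes at an adjusted p under 0.05 and 271 other genes as DEGs, among 16051 tested. A gene that was not called may therefore have changed by 1.5-fold. The 10 genes and all gene lists were chosen with earlier results of these data known. Named were all 10 genes, of each stage and partner list every DEG or gene with an adjusted p under 0.05 and up to 4 others by mean CPM, up to 4 by mean CPM of each list of other cell types, and the 5 nearest profiles. Lists covered 3 granule stages, transcription factors, CXCR2 ligands, receptors, retention factors, and markers of neutrophils, macrophages, monocytes, eosinophils, mast cells, B cells, T and NK cells, erythroid and stromal cells. 1 gene was taken out of these lists and their counts and is not reported here. Fcgr1, Ly6c2, Bglap and genes marked as such in the text were named after their values were seen. Alternatives were DESeq2 1.42.0 (Wald test), edgeR with DESeq2's size factors or with unscaled library sizes, a fit without the low-count filter or with a minimum of 10 counts per library, a block for the replicate number, and each library left out. A fit without MSR1 KO replicate 1 and MSR1 WT replicate 3 was added after the data had been seen.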

Additional observations from a re-analysis of the deposited data

How the results depend on the processing

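Of 130 values of the 10 genes under 13 alternatives, 117 kept their direction and their side of the DEG definition, 3 were no longer past it, 6 came to pass it and 4 changed sign. With each library left out in turn, 1 to 5 of the 10 genes were DEGs, beside 540 to 754 higher DEGs among 16801 to 16886 tested genes. Of the 10 these were Retnlg alone without MSR1 KO replicate 1, and Mpo, Camp, Lcn2, Retnlg and Cxcr2 without MSR1 WT replicate 1. Without MSR1 KO replicate 1 and MSR1 WT replicate 3 together there were 0, and S100a8 (-0.00979), S100a9 (-0.138) and Ngp (-0.224) changed sign, Ngp also without MSR1 WT replicate 3 (-0.00432), as did Prtn3 (-0.0905), Serpinb1a (-0.0284), Elane (-0.0307), Chil3 (-0.196), Cebpa (0.168), Cxcl1 (-0.183) and Cxcl5 (0.561). At an adjusted p under 0.05 DESeq2 called 2 of the 10 genes, and 1 higher partner gene. Replicate numbers did not pair the libraries as a whole (correlations of same-numbered deviations -0.0261, 0.0187 and -0.0048). For the 10 genes alone, pairing was not tested. By edgeR with that number as a block, S100a8, S100a9, Mpo, Camp, Ltf, Lcn2, Retnlg and Cxcr2 had unadjusted p-values from 0.00134 to 0.0208. Those of Ngp (0.0586) and Mmp8 (0.0696) were above 0.05, and 0 of the 10 had an adjusted p under 0.05. With the replicate number as a block, Camp joined Retnlg and Cxcr2 as a DEG (0.725), the further stage genes had 1 lower DEG and 0 genes higher at an adjusted p under 0.05, the partner genes had 0 lower, and Cxcl1 (-0.0284) and Cxcl5 (0.184) changed sign. With library size alone Runx1 (-0.0159) and Cxcl1 (-0.0203) changed sign. Leaving out a library gave, for the further stage genes, 2 to 5 higher DEGs (5 without MSR1 KO replicate 3), 0 to 1 lower DEGs and 0 to 4 genes higher at an adjusted p under 0.05. For the partner genes it gave 0 to 1 higher DEGs and 0 to 2 lower at an adjusted p under 0.05. For markers of other cell types it gave 6 to 13 higher DEGs, 1 to 7 higher and 1 to 6 lower at an adjusted p under 0.05, and, without both libraries, 11 higher DEGs and 1 gene lower at an adjusted p under 0.05. There, the further stage genes had 1 lower DEG and 1 gene higher at an adjusted p under 0.05, and the partner genes 0 lower. Ranges of log2 fold change with a library left out were 0.124 to 0.525 for S100a8, 0.0625 to 0.524 for S100a9, 0.26 to 0.608 for Mpo, 0.342 to 1 for Camp, 0.198 to 0.576 for Ltf, 0.271 to 0.63 for Lcn2, 0.172 to 0.448 for Mmp8, 0.237 to 0.726 for Serpinb1a and 0.0624 to 0.455 for Elane, and those that crossed 0 were -0.00432 to 0.574 for Ngp, -0.0066 to 0.421 for Prtn3, -0.0625 to 0.317 for Chil3, -0.197 to 0.0739 for Cebpa (0.0217 without MSR1 WT replicate 3), -0.0296 to 0.0504 for Runx1 (-0.0151 without MSR1 WT replicate 3), -0.547 to 0.124 for Cxcl2, -0.217 to 0.292 for Cxcl1 (also -0.081, -0.0872 and -0.0968) and -0.458 to 0.547 for Cxcl5 (also 0.0734). The cause was not tested. Among stage ratios, late over primary of the 10 genes was 0.382 to 0.632 with a library left out and 0.304 without both libraries. With the further stage genes and without the most abundant gene of each stage, late over primary was -0.0151, specific over primary -0.106 and late over specific 0.0908, and late over specific was -0.0499 per kilobase of exon. At the depth of these libraries, Ly6g, Cxcl1, Cxcl5 and Stfa2l1 rest on few counts.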
